A study of Homo sapiens with 6 samples.

Results

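The DEAD and DEAH box RNA helicases are enzymes that use ATP to unwind RNA or to remodel complexes of RNA and protein, and they are named for a short run of amino acids in the ATP-binding core. They were examined as 45 genes of 36884 in the deposited table, 29 with a DDX symbol and 16 with a DHX symbol. Members were the genes whose symbol is DDX or DHX followed by a number and, for some, the letter A or B, with a mean of at least 20 counts over the 6 libraries. DDX58, DDX60 and DDX3Y were left out beforehand. The rule uses no measured difference between groups, but it was set with earlier results of these data known. DDX4, DDX25, DDX43 and DDX53, germ line or testis genes, fell below the minimum with a mean of at most 1.17 counts, and DDX47 was the lowest member with 48.3 counts.

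The libraries came from RPE1, a human line of retinal pigment epithelium that is immortalized but not transformed, and in all of them CRISPR-Cas9 editing had removed the function of LATS1 and LATS2, the Hippo pathway kinases that restrain the coactivators YAP and TAZ. In 3 libraries (siMK5) the cells had been treated with siRNA to MK5, the protein kinase whose gene is MAPKAPK5, and in the other 3 (siCon) with control siRNA, for 48 h in both groups. The submitters call the replicates biological, but whether each came from its own culture or its own edited clone is not given in the sources used here, so p-values measure the spread between these libraries.

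Helicases of this family act at nearly every step in the life of an RNA. Many are nucleolar and free or rearrange the small nucleolar RNAs that fold and modify ribosomal RNA. Others drive the successive rearrangements of the spliceosome, pass mRNA through the nuclear pore, unwind leaders for translation, or hand mRNA to decay. Growing and dividing cells make ribosomes at a high rate, and the nucleolar helicases are known to be needed for it.

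The libraries held between 27188074 and 28236773 counts. Levels are given as CPM, the gene's counts relative to the TMM-scaled library total. Changes are log2 fold changes, siMK5 over siCon, and the value after ± is 1 standard error from edgeR (quasi-likelihood fit, n = 3 libraries per group). A gene passed at a Benjamini-Hochberg adjusted p below 0.05 over all 13431 genes tested. MAPKAPK5, the siRNA's target, was at 17.4, 14.1 and 16.2 CPM in the siMK5 libraries and at 35.6, 29.05 and 31.3 CPM in the siCon libraries (log2 fold change −1.01 ± 0.14, edgeR adjusted p = 0.00169). Of 7 markers of retinal pigment epithelium, TTR had no count, and RPE65, RLBP1 and TYR were below 0.1 CPM. MITF fell (−1.09 ± 0.14, edgeR adjusted p = 0.00114), as did PMEL at a low level (−1.89 ± 0.27, edgeR adjusted p = 0.00189). BEST1 did not pass (0.01 ± 0.37, edgeR adjusted p = 0.984). MITF made up most of the summed level, which was 23.7 to 30.2 CPM in siMK5 and 53.7 to 62.1 CPM in siCon libraries. Of the epithelial markers, EPCAM had no count and CDH1 was close to 0, while the keratin genes KRT8 (−0.83 ± 0.18, edgeR adjusted p = 0.0104) and KRT18 (−0.74 ± 0.13, edgeR adjusted p = 0.00363) fell, and the summed level was 387 to 573 CPM in siMK5 and 752 to 827 CPM in siCon libraries. Of the mesenchymal markers, THY1 fell (−2.18 ± 0.21, edgeR adjusted p = 0.000475) and COL1A1 rose (1.83 ± 0.35, edgeR adjusted p = 0.00605). VIM did not pass (−0.12 ± 0.14, edgeR adjusted p = 0.493), and DCN was close to 0 (0.07 CPM in both groups). The summed level, mostly VIM, was 3512 to 4154 CPM in siMK5 and 3918 to 4705 CPM in siCon libraries. Markers of endothelium and of leukocytes summed to at most 0.348 and 0.474 CPM in siMK5 and at most 3.22 and 0.295 CPM in siCon libraries, and PECAM1 had no count. The part of these marker shifts in the members' changes was not tested. Control replicate 1 stood apart from the other controls. The members' median distance of replicate 1 from the mean of replicates 2 and 3 was 0.11 in siMK5 and 0.22 in siCon on the log2 scale, against 0.18 and 0.37 over all genes tested.

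Of the 45 members, all of which passed the filter on low counts, 11 fell, 4 rose and 30 did not pass. The 15 that passed are 33.3% of the members, beside 46.2% of all genes tested. Of the members, 24.4% fell, near the 23.7% of all genes, and 8.89% rose, beside 22.5% of all genes. The groups did not overlap in 27 members (60% of them), beside 60.4% of all genes tested. They were 18 members lower in siMK5, beside 29.8% of all genes, and 9 higher, beside 30.6%. The members' median log2 fold change was −0.19, beside 0.00031 over all genes tested. In bulk RNA such as this, less RNA per cell and fewer cells that express a gene cannot be told apart. The fold change was within 1.5-fold in 77.8% of members, beside 54.0% of all genes tested. A fall of at least 2-fold passed in 3 members and such a rise in none, where 11.5% and 10.8% of all genes tested passed with these. The members' median standard error was 0.14, beside 0.19 over all genes tested. No genes matched to the members in level were set beside them. In each of the 15 passing members the groups did not overlap, which by itself gives the same direction in all 3 replicate pairs. The members passed on these same libraries, so this is no separate support.

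**Figure D1:**
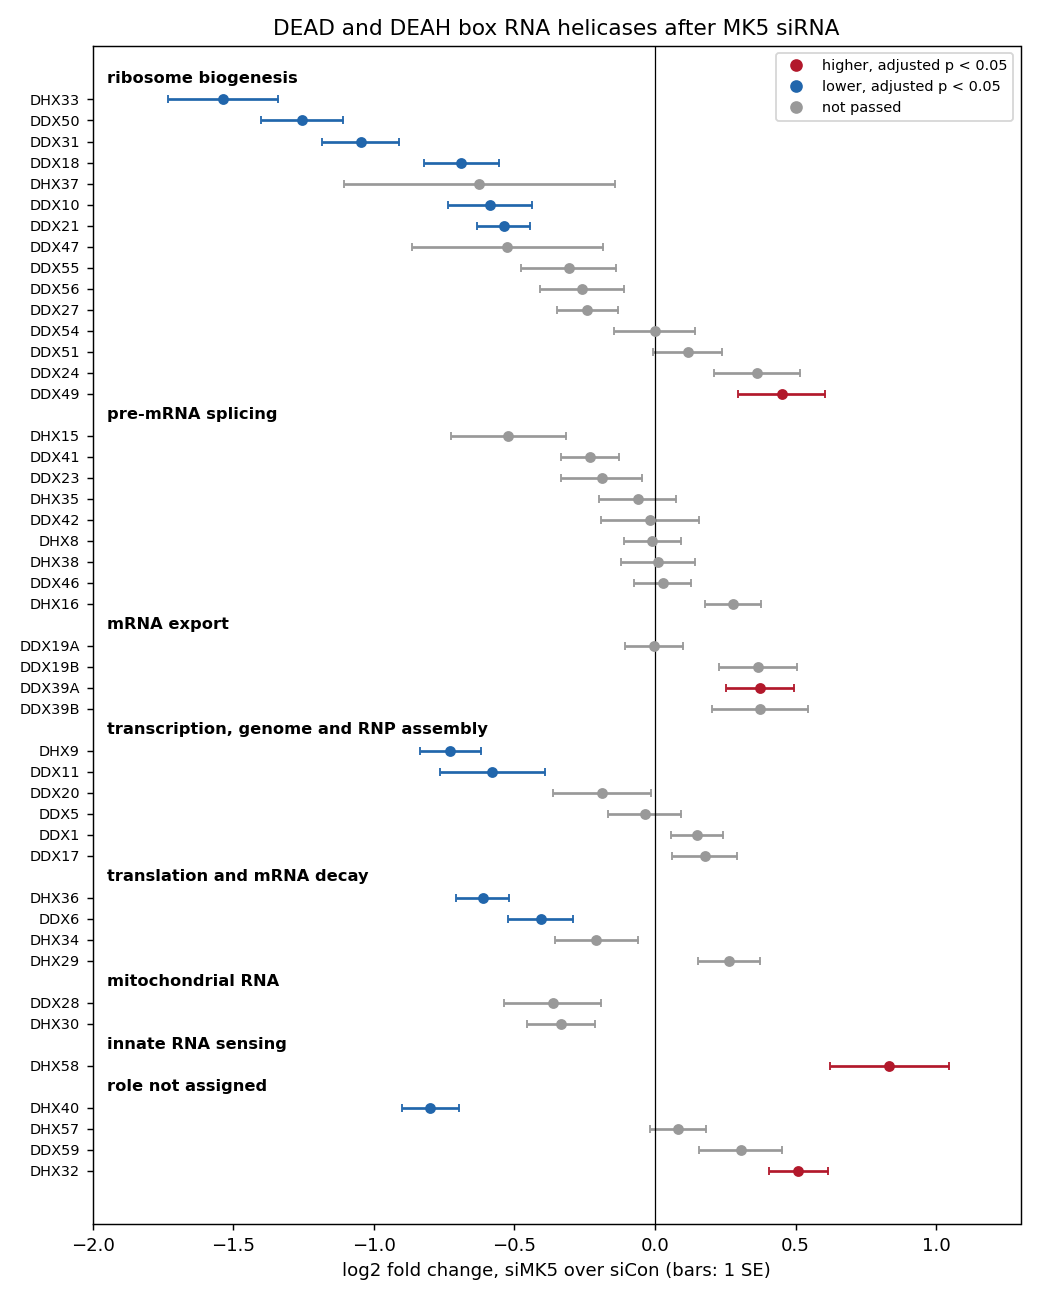
Log2 fold change of each of the 45 helicase genes, siMK5 over siCon, by role, as points with bars of 1 SE (n = 3 libraries per group). Blue points passed downward, red points upward, and grey points did not pass; 6 of the 11 blue points are among the ribosome biogenesis helicases, and no splicing helicase is coloured.

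**Figure D2:**
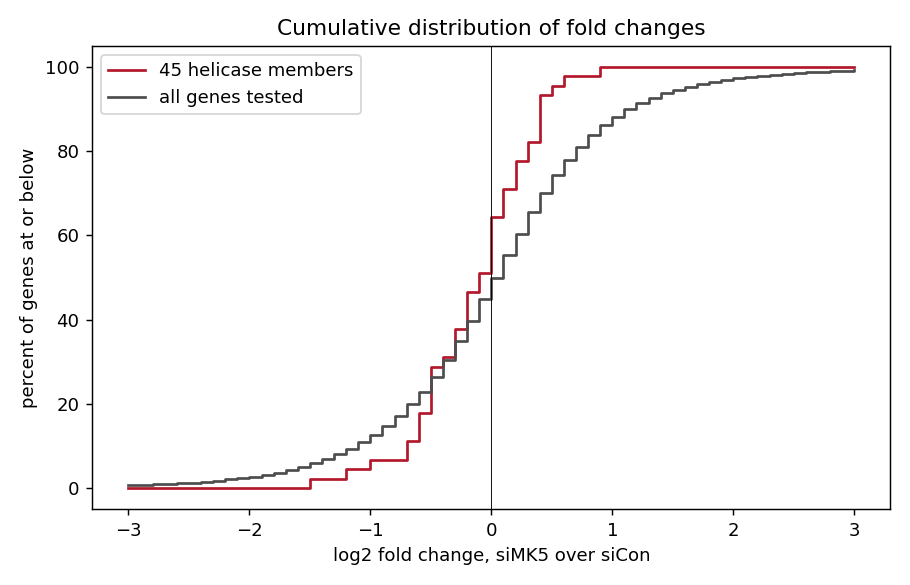
Cumulative percent of genes at or below each log2 fold change (siMK5 over siCon), for the 45 helicase members in red and for all 13431 genes tested in grey. The red curve is steeper, with members running from −1.54 to 0.83, and it lies above the grey curve at 0, where the members' median is −0.19. The sets were not matched in level.

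The number that passed depended on which library was left out. Without control replicate 1, 18 members fell and 10 rose, or 62.2% of the members beside 64.4% of all genes tested. Without control replicate 2 or 3, 13 and 12 members passed (28.9% and 26.7%, beside 36.9% and 37.1% of all genes tested). Without siMK5 replicate 1, 2 or 3, 14, 9 and 9 members passed (31.1%, 20% and 20%, beside 37.1%, 30.5% and 31.2%). Without replicate 1 of both groups, 21 fell and 11 rose, or 71.1% of the members beside 75.8% of all genes tested.

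Helicases of ribosome biogenesis held the largest falls. Of 15 members with a role in making ribosomal RNA or assembling ribosomal subunits, 6 fell, 1 rose and 8 did not pass. The share that passed was 46.7%, near the 46.2% of all genes tested, with 40% lower beside 23.7% of all genes. The median log2 fold change was −0.52 and is that of DDX47, the least counted member. Without replicate 1 of both groups, 10 fell and 2 rose (80% passed, beside 75.8% of all genes tested), with a median of −0.26. Without siMK5 replicate 1, 6 fell and none rose (40%, beside 37.1%), with a median of −0.24.

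DHX33 (ENSG00000005100), which promotes transcription of ribosomal RNA genes, was at 17.4, 18.5 and 18.4 CPM in siMK5 replicates 1, 2 and 3, and at 68.8, 43.5 and 45.3 CPM in siCon replicates 1, 2 and 3. Every siMK5 library lay far below every control, and control replicate 1 was the highest. The fall was −1.54 ± 0.20 (edgeR adjusted p = 0.00128), and −1.29 without control replicate 1.

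DDX50 (ENSG00000107625) and DDX21 (ENSG00000165732) are paralogues known as nucleolar proteins of ribosomal RNA processing, and on chromosome 10 of the RefSeq annotation no protein-coding gene lies between them. DDX50 was at 37.1, 39.6 and 40.6 CPM in siMK5 libraries and at 113, 83.2 and 84.4 CPM in siCon libraries, a fall of −1.26 ± 0.15 (edgeR adjusted p = 0.000921). DDX21 was at 258, 241 and 248 CPM in siMK5 libraries and at 377, 348 and 360 CPM in siCon libraries, a fall of −0.54 ± 0.09 (edgeR adjusted p = 0.0039). Both were lower in all siMK5 libraries, but not in the same proportion. The DDX50 count was 0.144, 0.164 and 0.163 of the DDX21 count in siMK5 replicates 1, 2 and 3, and 0.299, 0.239 and 0.235 of it in siCon replicates 1, 2 and 3, so the ratios of the groups did not overlap. This difference between the paralogues was not tested, and 3 libraries against 3 cannot reach an exact two-sided permutation p below 0.1.

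DDX31 (ENSG00000125485), a nucleolar helicase, was at 10.2, 12.8 and 12.4 CPM in siMK5 libraries and at 24.1, 23.7 and 25.4 CPM in siCon libraries. The controls were close to each other here, replicate 1 included, and the fall was −1.05 ± 0.14 (edgeR adjusted p = 0.00139). DDX18 (ENSG00000088205), the homologue of yeast Has1 in large subunit assembly, was at 76.0, 79.9 and 90.9 CPM in siMK5 libraries and at 153, 124 and 121 CPM in siCon libraries (−0.69 ± 0.13, edgeR adjusted p = 0.00587). DDX10 (ENSG00000178105), the homologue of yeast Dbp4 in small subunit processing, was at 31.9, 27.6 and 27.4 CPM in siMK5 libraries and at 51.7, 40.7 and 38.3 CPM in siCon libraries (−0.59 ± 0.15, edgeR adjusted p = 0.0170). DDX10 did not pass without siMK5 replicate 2 or without replicate 3 (edgeR adjusted p = 0.0753 and 0.0731).

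The fall was not shared by the whole group. DDX49 (ENSG00000105671), the homologue of yeast Dbp8, rose, with 68.3, 68.8 and 75.0 CPM in siMK5 libraries and 41.0, 54.0 and 60.0 CPM in siCon libraries (0.45 ± 0.15, edgeR adjusted p = 0.0485). Its call was lost in 6 of 13 alternative settings, with a highest edgeR adjusted p of 0.145 without siMK5 replicate 3. DDX24 lay higher in every siMK5 library, at 216, 195 and 205 CPM against 126, 173 and 180 CPM in siCon libraries, and did not pass (0.36 ± 0.15, edgeR adjusted p = 0.0917). DDX54 (−0.00083), DDX51 (0.12), DDX27 (−0.24), DDX56 (−0.26) and DDX55 (−0.31) did not pass.

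DHX37, which releases the U3 small nucleolar RNA from the early ribosome precursor, was spread widely among the controls. It was at 20.5, 24.8 and 26.1 CPM in siMK5 libraries and at 12.03, 44.2 and 53.8 CPM in siCon replicates 1, 2 and 3. Control replicate 1 was the lowest of all 6 libraries and the other controls were the highest, and the log2 fold change of −0.63 ± 0.48 did not pass (edgeR adjusted p = 0.320). It was −1.04 without control replicate 1 (edgeR adjusted p = 0.000299). DDX47, the homologue of yeast Rrp3, had only 22 to 62 counts per library and did not pass (−0.52 ± 0.34). How reads that fit more than 1 place were counted is not given in the sources used here, so its level may be understated and its result is uncertain.

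The sequence before the transcript start is shown for 3 of the nucleolar helicases that fell, to set the neighbouring paralogues DDX50 and DDX21 beside each other and beside DDX31. The windows hold 250 bases before and 50 after a start in RefSeq (GRCh38.p14), and capitals mark matches on either strand to CACGTG, the E-box, or CCAAT, read as ATTGG on the other strand. For DDX21 and DDX31, which have more than 1 window, the window with the E-box is printed.
DDX50, chr10:68901065-68901364, plus strand: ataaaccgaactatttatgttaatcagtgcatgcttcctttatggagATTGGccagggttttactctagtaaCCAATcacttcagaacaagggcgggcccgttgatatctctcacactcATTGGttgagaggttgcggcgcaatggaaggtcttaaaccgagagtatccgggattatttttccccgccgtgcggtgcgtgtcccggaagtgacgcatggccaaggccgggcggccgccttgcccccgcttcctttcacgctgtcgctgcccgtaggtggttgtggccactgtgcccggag
DDX21, chr10:68956397-68956696, plus strand: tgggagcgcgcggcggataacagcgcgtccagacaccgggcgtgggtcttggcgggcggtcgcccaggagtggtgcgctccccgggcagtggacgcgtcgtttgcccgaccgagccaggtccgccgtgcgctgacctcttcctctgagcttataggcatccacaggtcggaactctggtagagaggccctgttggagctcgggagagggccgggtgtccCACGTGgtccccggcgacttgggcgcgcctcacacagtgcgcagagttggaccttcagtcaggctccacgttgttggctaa
DDX31, chr9:132669934-132670233, minus strand: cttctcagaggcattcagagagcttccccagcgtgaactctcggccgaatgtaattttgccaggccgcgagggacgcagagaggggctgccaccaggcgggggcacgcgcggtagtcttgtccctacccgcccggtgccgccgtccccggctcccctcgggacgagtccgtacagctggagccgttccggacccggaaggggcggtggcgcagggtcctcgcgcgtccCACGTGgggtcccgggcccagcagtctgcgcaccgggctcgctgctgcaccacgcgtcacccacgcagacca

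The DDX50 window held CCAAT at 3 places, and the printed DDX21 and DDX31 windows, chosen for it, each held 1 E-box. The other DDX21 window held neither CACGTG nor CCAAT. The DDX31 windows not printed held CCAAT and no E-box. Windows were available for 41 of the 45 members. DHX33, the largest fall, had none, nor had DDX18, DDX49 and DHX58. A gene was counted once if any of its windows held the letters. CACGTG was in 21.95% of these member genes, beside 8.77% of all 27305 genes of the table, noncoding genes included, and CCAAT was in 48.8% beside 39.7%. TTCGCGC or TTGGCGC, which are letters of E2F sites, were in 12.2% beside 6.10%, and CATGCGC, letters of NRF1 sites, in 17.1% beside 5.30%. CACGTG was in 3 of the 9 falling members with a window (DDX21, DDX31 and DHX40), in 1 of the 2 rising members (DHX32) and in 5 of the 30 that did not pass (DDX5, DDX54, DHX34, DHX35 and DHX37). CCAAT was in 5, 1 and 14 of them. The E2F letters were in 3 falling members, no rising member and 2 that did not pass, and the NRF1 letters in 3, 0 and 4. DDX10, DDX11 and DHX9 were the falling members that held each of these. Such matches describe the sequence and do not show that a factor binds there.

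No splicing helicase passed. The 9 members that act in the spliceosome had log2 fold changes from −0.52 to 0.28, a median of −0.02 and standard errors of 0.10 to 0.21. None passed beside 46.2% of all genes tested, and 2 had an unadjusted edgeR p below 0.05. With DESeq2, or with a filter of at least 1 CPM in 3 libraries, 1 of the 9 passed. DHX15, the helicase that takes apart the spent spliceosome, was at 174, 157 and 160 CPM in siMK5 libraries and at 317, 199 and 190 CPM in siCon libraries. All siMK5 libraries were lower, control replicate 1 was far above the other controls, and the change did not pass (−0.52 ± 0.21, edgeR adjusted p = 0.0762), while without control replicate 1 it was −0.24 (edgeR adjusted p = 0.0219). DHX16, the homologue of yeast Prp2, was higher in every siMK5 library, at 68.5, 68.9 and 73.3 CPM against 54.0, 59.2 and 60.8 CPM in siCon libraries, and did not pass (0.28 ± 0.10, edgeR adjusted p = 0.0564). It passed with DESeq2 (0.26, DESeq2 adjusted p = 0.0403). DHX8 (−0.0094), DHX38 (0.01) and DDX46 (0.03), the homologues of yeast Prp22, Prp16 and Prp5, lay within 1 standard error of 0, and their sign changed under other settings. Without replicate 1 of both groups, 3 of the 9 fell and 1 rose, or 44.4% of them beside 75.8% of all genes tested. Without control replicate 1 alone, 2 fell and 1 rose, or 33.3% beside 64.4%.

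Among 4 helicases of mRNA export, DDX39A rose and the others did not pass. The share that passed was 25%, beside 46.2% of all genes tested. DDX39A (ENSG00000123136), which loads export factors onto mRNA, was at 66.2, 70.6 and 80.2 CPM in siMK5 libraries and at 60.3, 50.8 and 56.6 CPM in siCon libraries (0.37 ± 0.12, edgeR adjusted p = 0.0407). Its call was lost in 6 of 13 alternative settings, among them the replicate block (edgeR adjusted p = 0.0591), with a highest edgeR adjusted p of 0.161 without control replicate 2. Its paralogue DDX39B was at 90.5, 139 and 133 CPM in siMK5 replicates 1, 2 and 3 and at 90.5, 97.1 and 92.6 CPM in siCon libraries. Replicate 1 of siMK5 was at the level of the controls and the other siMK5 libraries were above them, and the change did not pass (0.37 ± 0.17, edgeR adjusted p = 0.115). Without siMK5 replicate 1 it was 0.55 (edgeR adjusted p = 0.0123). In the annotation at hand, 89.3% of the exon bases of DDX39B are shared with other genes, among them a read-through transcript, so its counts may be incomplete.

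DDX19A and DDX19B, near-identical helicases at the cytoplasmic face of the nuclear pore, can share reads and are uncertain for that reason. In the annotation at hand, 62.6% of the exon bases of DDX19A and 13% of those of DDX19B are shared with other genes. DDX19A was at 59.4, 61.7 and 64.3 CPM in siMK5 libraries and at 57.0, 63.0 and 65.9 CPM in siCon libraries, with overlapping groups (−0.0032 ± 0.10, edgeR adjusted p = 0.981). DDX19B was at 16.0, 15.6 and 18.0 CPM in siMK5 libraries and at 11.8, 14.1 and 12.7 CPM in siCon libraries, with no overlap, and did not pass (0.37 ± 0.14, edgeR adjusted p = 0.0679).

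**Figure D3:**
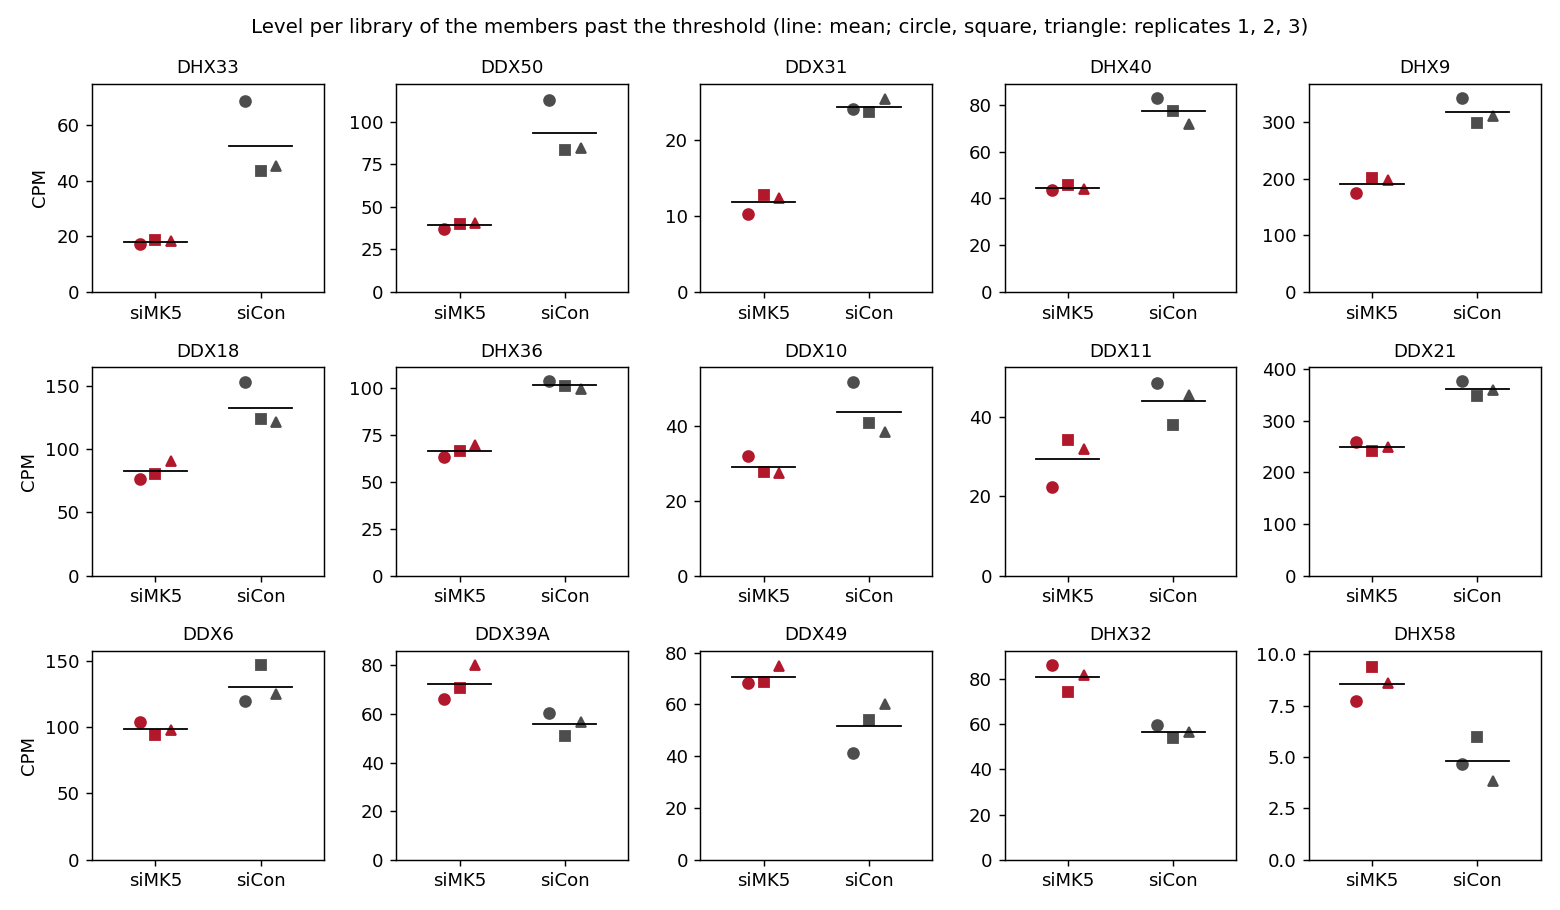
CPM in each library of the 15 helicase genes that passed, siMK5 left of siCon, with a line at the mean and circle, square and triangle for replicates 1, 2 and 3. In each panel the groups are apart, and control replicate 1 is the highest control in 11 of the 15 panels, 9 of them among the 11 falls.

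Of 6 helicases of transcription, genome maintenance and RNP assembly, 2 fell, none rose and 4 did not pass. The share that passed was 33.3%, beside 46.2% of all genes tested. DHX9 (ENSG00000135829), known as RNA helicase A, was at 176, 201 and 198 CPM in siMK5 libraries and at 342, 299 and 310.5 CPM in siCon libraries, a wide gap between groups (−0.73 ± 0.11, edgeR adjusted p = 0.00216). DDX11 (ENSG00000013573), a DNA helicase of sister chromatid cohesion, was at 22.3, 34.0 and 31.9 CPM in siMK5 libraries and at 48.5, 37.8 and 45.3 CPM in siCon libraries (−0.58 ± 0.19, edgeR adjusted p = 0.0408). Its groups were only just apart. Its call was lost in 6 of 13 alternative settings, among them the replicate block (edgeR adjusted p = 0.0793) and each fit without a single siMK5 library, with a highest edgeR adjusted p of 0.0941 without control replicate 3. Without replicate 1 of both groups the fall was −0.33. It has a near-identical copy, the pseudogene DDX12P, which averaged 3.21 ± 1.41 CPM in siMK5 and 9.54 ± 3.48 CPM in siCon libraries (SD, n = 3 each). DDX12P fell by −1.57 ± 0.40 (edgeR adjusted p = 0.0181), and reads could be split between them.

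The most abundant members, DDX5 and DDX17, did not pass. Next in CPM over all 6 libraries came DDX21 (305) and DHX9 (254), which both fell. DDX5 (ENSG00000108654) and DDX17 (ENSG00000100201), paralogues that act as transcriptional coregulators and in RNA processing, averaged 200.1 and 112 CPM per kilobase of exon in siMK5 and 205 and 99.1 CPM per kilobase in siCon libraries. DDX5 was at 546, 555 and 558 CPM in siMK5 libraries and at 475, 627 and 601 CPM in siCon libraries (−0.04 ± 0.13, edgeR adjusted p = 0.832). DDX17 was at 534, 554 and 521 CPM in siMK5 libraries and at 425, 536 and 463 CPM in siCon libraries (0.18 ± 0.12, edgeR adjusted p = 0.252). In both, the siMK5 libraries were closer together than the controls. The DDX5 controls lay on both sides of the siMK5 libraries. The DDX17 controls of replicates 1 and 3 lay below every siMK5 library, and that of replicate 2 lay within their range. The ratio of DDX17 to DDX5 counts was 0.979, 0.998 and 0.933 in siMK5 libraries and 0.896, 0.855 and 0.769 in siCon libraries, without overlap and untested. Next in level per kilobase over all 6 libraries came DHX15 (66.6), DDX1 (63.5), DDX21 (60.8) and DHX9 (60.0), and the lowest were DDX31 (3.38), DHX58 (2.56) and, with the same doubt about its counting, DDX47 (0.946).

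DDX1, a subunit of the tRNA ligase complex, was at 195, 184 and 194 CPM in siMK5 libraries and at 182, 168 and 167 CPM in siCon libraries. Its groups did not overlap, and it did not pass (0.15 ± 0.09, edgeR adjusted p = 0.228). DDX20, also called gemin3, of the SMN complex that assembles spliceosomal RNPs, was at 24.0, 22.8 and 23.7 CPM in siMK5 libraries and at 33.9, 23.3 and 23.2 CPM in siCon libraries. Only control replicate 1 stood out, and the change did not pass (−0.19 ± 0.17, edgeR adjusted p = 0.407) and was 0.02 without that library.

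Among helicases of translation and mRNA decay, 2 of 4 fell and none rose. The share that passed was 50%, near the 46.2% of all genes tested, of which 23.7% fell. DHX36 (ENSG00000174953), which unwinds G-quadruplexes, was at 63.2, 66.5 and 69.6 CPM in siMK5 libraries and at 104, 101 and 99.7 CPM in siCon libraries. The libraries of each group were close together, and the fall was −0.61 ± 0.09 (edgeR adjusted p = 0.00236). DDX6 (ENSG00000110367), a component of processing bodies that represses translation and promotes decapping, was at 104, 93.8 and 97.8 CPM in siMK5 libraries and at 119, 147 and 125 CPM in siCon libraries (−0.41 ± 0.12, edgeR adjusted p = 0.0257). Its call was lost in 4 of 13 alternative settings, among them the replicate block (edgeR adjusted p = 0.0535), with a highest edgeR adjusted p of 0.116 without siMK5 replicate 2. DHX29, which helps ribosomes scan structured leaders, lay higher in all siMK5 libraries (60.2, 66.9 and 71.2 CPM, against 58.6, 52.8 and 54.0 CPM in siCon libraries) and did not pass (0.26 ± 0.11, edgeR adjusted p = 0.0871). DHX34, a factor of nonsense-mediated decay, overlapped between groups (−0.21 ± 0.15).

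Both helicases of mitochondrial RNA lay lower in every siMK5 library without passing. Of all genes tested, 29.8% were lower in siMK5 without overlap, so 2 such genes do not mark out this role. DHX30, of the mitochondrial RNA granule, was at 105, 102 and 105 CPM in siMK5 libraries and at 150, 114 and 130 CPM in siCon libraries (−0.33 ± 0.12, edgeR adjusted p = 0.0595). DDX28, of mitochondrial ribosome assembly, was at 10.0, 10.2 and 11.4 CPM in siMK5 libraries and at 12.1, 12.2 and 16.3 CPM in siCon libraries (−0.36 ± 0.17, edgeR adjusted p = 0.125). Without control replicate 1 both passed (edgeR adjusted p = 0.0341 and 0.0376), as did 64.4% of all genes tested.

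DHX58 (ENSG00000108771), the LGP2 protein of the RIG-I-like receptors that sense viral RNA, had the largest rise among the members. It was at 7.74, 9.39 and 8.62 CPM in siMK5 libraries and at 4.64, 5.97 and 3.84 CPM in siCon libraries. All siMK5 libraries were higher, at a low level in both groups, and the rise was 0.83 ± 0.21 (edgeR adjusted p = 0.0172). It did not pass without control replicate 3 or without siMK5 replicate 2 or 3 (edgeR adjusted p = 0.0572, 0.0723 and 0.0601).

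Among 4 members to which no role was assigned, 1 fell and 1 rose. The share that passed was 50%, near the 46.2% of all genes tested. DHX40 (ENSG00000108406) was at 43.8, 45.6 and 43.8 CPM in siMK5 libraries and at 82.9, 77.3 and 71.7 CPM in siCon libraries, a wide gap with little spread (−0.80 ± 0.10, edgeR adjusted p = 0.00127). DHX32 (ENSG00000089876) was at 86.3, 74.3 and 81.7 CPM in siMK5 libraries and at 59.7, 54.1 and 56.5 CPM in siCon libraries (0.51 ± 0.10, edgeR adjusted p = 0.00754). Of its exon bases, 11% are shared with BCCIP on the opposite strand, and the strand setting of the counting is not given in the sources used here. DDX59 (0.30 ± 0.15) and DHX57 (0.08 ± 0.10) did not pass.

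**Figure D4:**
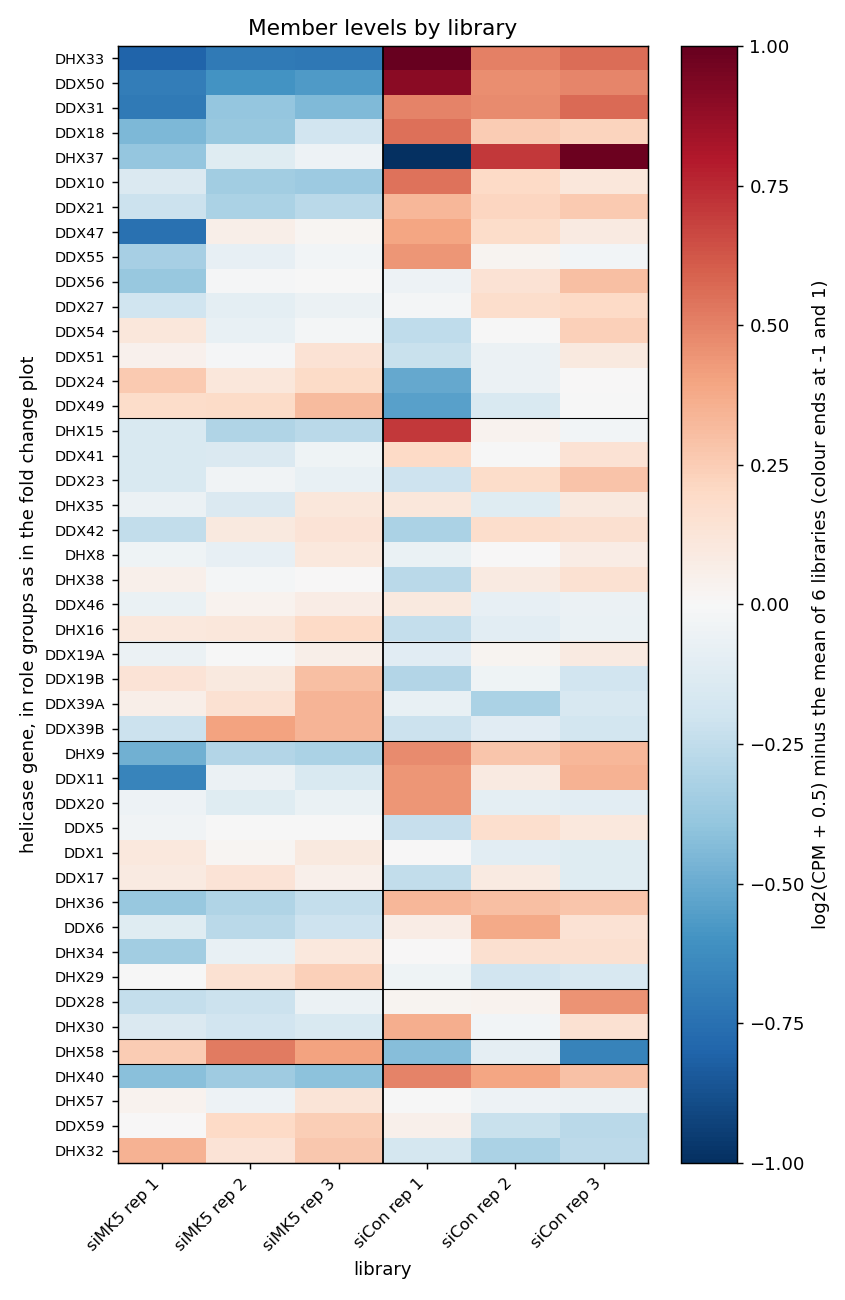
Levels of the 45 members in each library, as log2(CPM + 0.5) minus the gene's mean over 6 libraries (red higher, blue lower, colours ending at −1 and 1), siMK5 columns left of siCon, rows in role groups. The top rows, DHX33, DDX50 and DDX31, are blue in all siMK5 columns, and DHX37 is blue in control replicate 1 and red in the other controls.

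Genes of proteins that work with these helicases changed in both directions. Of 35 partners and cofactors, 13 fell, 7 rose and 15 did not pass, with a median log2 fold change of −0.08, and the 57.1% that passed stand beside 46.2% of all genes tested. Of these 20, 9 lost their call in at least 1 of 13 alternatives and 11 did not. GEMIN8 lost its call in 6, THOC2, CMTR1 and GPATCH2 in 5, GEMIN5 in 4, CNOT1, RTRAF and PINX1 in 3, and THOC5 in 2. The largest changes were falls in FAM98B, ALYREF, GPATCH4 and TIMELESS. The adaptor gene ALYREF, which the DDX39 proteins load onto mRNA for export, was at 18.5, 24.3 and 26.8 CPM in siMK5 libraries and at 75.6, 75.3 and 82.1 CPM in siCon libraries (−1.74 ± 0.16, edgeR adjusted p = 0.000419). The genes of the THO complex that bring DDX39B to mRNA differed among themselves, with THOC2 lower (−0.40 ± 0.12), THOC5 higher (0.54 ± 0.13) and THOC1 not passing (−0.08 ± 0.14).

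The tRNA ligase complex around DDX1 also moved in both directions. FAM98B was at 13.0, 16.3 and 16.2 CPM in siMK5 libraries and at 77.0, 52.0 and 51.4 CPM in siCon libraries (−1.98 ± 0.20, edgeR adjusted p = 0.000580). RTCB, the ligase itself, was at 212, 195 and 208 CPM in siMK5 libraries and at 118, 92.5 and 101 CPM in siCon libraries (0.98 ± 0.12, edgeR adjusted p = 0.00113). RTRAF (0.43 ± 0.10) and C2orf49, also called ashwin (0.63 ± 0.12), rose as well.

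Of the 6 gemin genes listed beside DDX20, GEMIN4 (−1.15 ± 0.22), GEMIN7 (−1.13 ± 0.18), GEMIN5 (−1.10 ± 0.31) and GEMIN6 (−0.97 ± 0.15) fell, GEMIN8 rose (0.46 ± 0.13) and GEMIN2 did not pass (−0.60 ± 0.26). The level of GEMIN5 was 62.8 CPM in control replicate 1, far above the 29.5 and 30.1 CPM of the other controls, and it did not pass with the replicate block (edgeR adjusted p = 0.0674). TIMELESS, a replication fork protein that binds DDX11, was at 23.9, 32.5 and 34.2 CPM in siMK5 libraries and at 102, 79.2 and 87.2 CPM in siCon libraries (−1.56 ± 0.17, edgeR adjusted p = 0.000789). Among partners of DDX6, CNOT1, the scaffold of the deadenylase complex, fell (−0.46 ± 0.12) and the decapping enhancer gene EDC3 rose (1.13 ± 0.19, edgeR adjusted p = 0.00383), while PATL1, EIF4ENIF1 and LSM14A did not pass.

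G-patch proteins stimulate DEAH box helicases. GPATCH4 was at 14.2, 17.9 and 20.5 CPM in siMK5 libraries and at 40.4, 53.7 and 63.8 CPM in siCon libraries (−1.58 ± 0.21, edgeR adjusted p = 0.00151). NKRF (−0.997 ± 0.16), PINX1 (−0.70 ± 0.19) and CMTR1 (−0.37 ± 0.10) fell and GPATCH2 rose (0.64 ± 0.18), while TFIP11, SUGP1, GPATCH1, GPATCH3, GPKOW, RBM5 and ZGPAT did not pass.

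A list of related RNA helicases outside the symbol pattern was set beside the members. Of 20 tested, 5 fell, 2 rose and 13 did not pass (35%, beside 46.2% of all genes tested), with a median of −0.19. EIF4A2, a helicase of translation initiation, was at 338, 280 and 237 CPM in siMK5 libraries and at 612, 461 and 420 CPM in siCon libraries (−0.81 ± 0.19, edgeR adjusted p = 0.0129). It did not pass without siMK5 replicate 2 or without replicate 3 (edgeR adjusted p = 0.0539 and 0.054). Its paralogue EIF4A1 averaged only 4.47 CPM in siMK5 and 5.11 CPM in siCon libraries and did not pass (−0.19 ± 0.19, edgeR adjusted p = 0.433). How reads that fit more than 1 place were counted is not given, so the levels of this pair are uncertain. DDX60L (−0.69 ± 0.12) fell and HELZ2, a coactivator of nuclear receptors, rose (0.70 ± 0.12), with edgeR adjusted p = 0.00430 and 0.00438. DQX1 was at 2.41, 2.40 and 2.49 CPM in siMK5 libraries and at 0.613, 1.40 and 1.17 CPM in siCon libraries, a rise of 1.19 ± 0.32 (edgeR adjusted p = 0.0215), and it did not pass without control replicate 3 or without any single siMK5 library. AQR, YTHDC2 and MOV10 were the other falls, and each lost its call in at least 1 alternative, MOV10 also with the replicate block (edgeR adjusted p = 0.0671). Of the 7 that passed, DDX60L and HELZ2 kept their calls under all 13 alternatives. DDX3X (−0.27 ± 0.15), SNRNP200 (−0.14 ± 0.11), EIF4A3 (−0.18 ± 0.12) and UPF1 (−0.24 ± 0.14) did not pass.

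**Figure D5:**
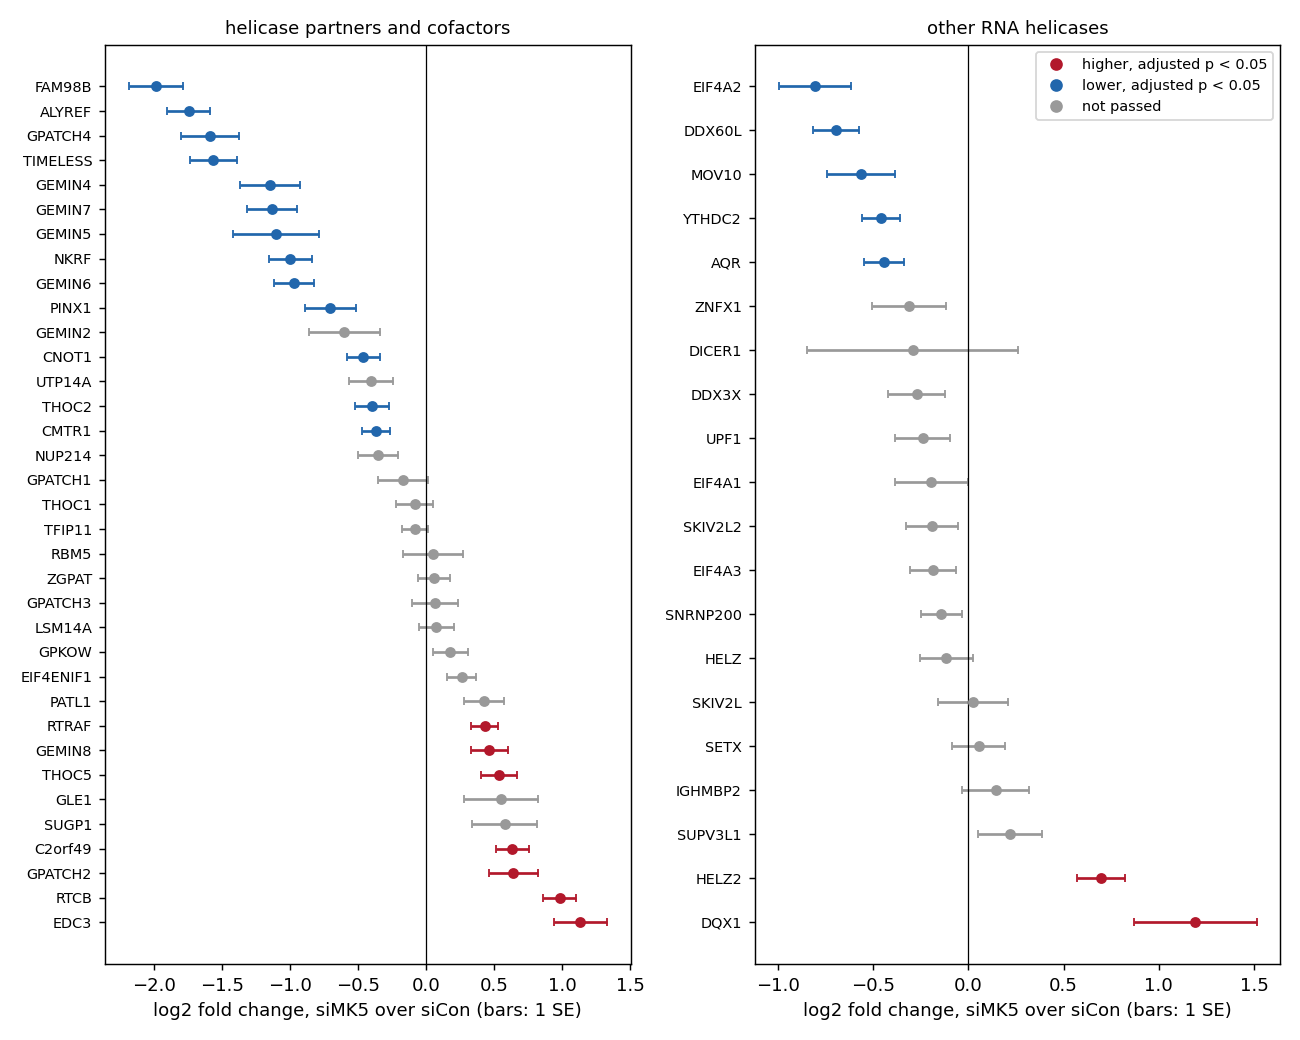
Log2 fold change, siMK5 over siCon, of 35 partners and cofactors of the helicases (left) and of 20 other RNA helicases (right), with bars of 1 SE (n = 3 libraries per group). Partners run from −1.98 in FAM98B to 1.13 in EDC3 with 20 of 35 coloured, and 7 of the 20 other helicases are coloured.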

How the data were processed

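A total of 6 libraries, 3 per group, were measured by RNA-seq from total RNA with the TruSeq V2 kit, per the labels' protocols. Trimmomatic 0.36, FastQC, HTSeq 0.9.1, TopHat2 2.1.1 and GRCh37 are listed by the submitters' processing notes. Their settings, the annotation release and the strand rule are not given in those notes. The deposited values are whole-number counts per gene, despite the word CPM in the table's name. Genes were filtered with filterByExpr of edgeR 4.0.16 in R 4.3.3 (minimum count 10, minimum total 15), which left 13431 of 36884 genes. EdgeR then scaled libraries by TMM and compared siMK5 with siCon by the quasi-likelihood test, two-sided, without a block, with Benjamini-Hochberg adjustment over all genes tested. The script was tested on simulated data. A standard error is the size of the log2 fold change divided by the square root of F. Alternatives were RLE and upper quartile scaling, DESeq2 1.42.0, other filters, a replicate block and leaving out libraries.

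Same-numbered libraries deviated together from their group means (correlations 0.258, 0.206 and 0.248 across genes). Correlations between libraries of different number are not given here, so pairing by number was not shown. The replicate pairs and the replicate block follow the numbers in the labels, which name no shared batch. Where repeated symbols occurred, the row of highest mean was used, which dropped 14 rows. Exon lengths and overlaps came from GENCODE release 29 and promoters from RefSeq, both GRCh38, matched by gene identifier or symbol; no coordinates of the files were used. Members, roles and lists were chosen with earlier results of these data known. The genes given in full were the passing members, the most abundant members, paralogue pairs, the mitochondrial and innate sensing members, and the 4 largest passing changes in each other list; others were added after their values were seen. A planned comparison of protein sequences was not made.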

Additional observations from a re-analysis of the deposited data

How the results depend on the processing

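Of the 15 members that passed, 9 kept their direction and stayed past the threshold under all 13 alternatives, namely DHX33, DDX50, DDX31, DDX18, DDX21, DHX40, DHX32, DHX9 and DHX36. DHX58, DDX39A, DDX10, DDX49, DDX11 and DDX6 kept their direction but did not pass under at least 1. Leaving out single libraries gave 8 to 18 members lower and 1 to 10 higher, 2103 to 4419 of all genes lower and 2064 to 4455 higher, 8 to 14 partners lower and 3 to 11 higher, 1 to 6 other helicases lower and 1 to 5 higher, and a members' median of −0.19 to −0.092. Without replicate 1 of both groups, 21 members were lower and 11 higher (median −0.13), 5177 genes lower and 5195 higher, 9 other helicases lower and 6 higher, and 11 partners higher. With no filter on low counts, 2 members were higher. With the replicate block, 9 members were lower and 3 higher, and DDX39A, DDX11 and DDX6 were the members that lost their call, as did MOV10 and GEMIN5 among the other lists.

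Members near 0 changed sign. DDX19A gave 0.0034 with upper quartile scaling and 0.0073 with at least 1 CPM in 3 libraries. DDX54 gave 0.0027 and 0.0086 there and 0.011 with the replicate block. DHX8 gave 0.0012 with at least 1 CPM in 3 libraries. Without replicate 1 of both groups, DHX35 gave 0.0028, DHX38 −0.12 and DDX20 0.0075. Leaving out single libraries gave −0.055 to 0.027 in DDX19A, −0.15 to 0.0022 in DHX35, −0.16 to 0.096 in DDX42, −0.060 to 0.034 in DHX8, −0.10 to 0.074 in DHX38, −0.026 to 0.093 in DDX46, −0.11 to 0.11 in DDX54, −0.31 to 0.024 in DDX20 and −0.15 to 0.023 in DDX5. The cause was not tested for any of these changes. The members' median standard error was 0.14 on the log2 scale, beside 0.19 over all genes tested. It ran from 0.09 in DDX21 to 0.48 in DHX37, and no smallest change that 3 libraries per group could pass was computed. A change that did not pass is therefore not shown to be absent.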
